A study of Mus musculus with 6 samples.

Results

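Ttll7 and 9 further genes for enzymes that modify tubulin were examined in RNA-seq of mouse tibialis anterior (TA) muscle. These were the ligase genes Ttll1, Ttll4, Ttll5, Ttll11, Ttll12 and Ttl, and the genes of the detyrosination enzymes, Vash1, Vash2 and Svbp. Membership followed the enzyme family, and Ttll7 was selected on its high level and its lower level in AAV-RBM20 in these same libraries. All 10 genes were found among the 55401 in the count table, and 10 of 10 passed the low-count filter, which left 17222 genes tested. Because Ttll7 was chosen by its difference between the groups, its values are given as a description without a test.

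All samples came from adult C57BL/6 mice with an inducible Bmal1 knockout in skeletal muscle (iMSBmal1-/-, labelled HSA-MCM-Bmal1-/-), in which the HSA promoter drives a tamoxifen-activated Cre in skeletal muscle fibers. At 12 to 16 weeks of age mice were given tamoxifen (2 mg daily over 5 days), followed after 4 weeks by injection of an adeno-associated virus (AAV) into the TA, which was collected another 4 weeks on. One group received AAV-GFP (n = 3) and the other AAV-RBM20 (n = 3), a vector in which the CMV promoter drives HA-tagged Rbm20, a splicing regulator of striated muscle. Every sample therefore carried the knockout, and no sample without it was analysed here. According to the study's methods more of the RBM20 vector than of the GFP vector was injected, so dose and transgene cannot be told apart. The labels do not say that the samples came from separate mice, and p-values measure the spread between these samples only. The study's blot lanes list some mouse numbers with both the GFP vector (R) and the RBM20 vector (L). Whether the sequenced samples were paired within mice in this way is not given.

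Tubulin, the subunit of microtubules, carries short acidic tails that are modified after assembly. Enzymes of the TTLL family (tubulin tyrosine ligase-like) attach glutamate chains to glutamate residues of these tails, and cytosolic carboxypeptidases trim the chains. In a separate cycle, VASH1 or VASH2 bound to SVBP removes the last tyrosine of alpha-tubulin and TTL puts it back. In striated muscle, detyrosinated microtubules are known to bind the desmin network and to stiffen the fiber. The transcript of an enzyme does not give its activity, and no modified tubulin was measured here.

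The tails are what these enzymes act on, so the coding ends of 5 abundant tubulin genes are shown, read from GENCODE M21 on GRCm38 (mm10). Each run holds the last 60 bases before the stop codon (20 codons), 5′ to 3′ on the coding strand. For the alpha-tubulin genes capitals mark the last codon, which encodes the residue at the end of the new protein.
Tuba4a: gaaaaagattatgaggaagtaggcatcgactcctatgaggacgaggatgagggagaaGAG
Tuba8: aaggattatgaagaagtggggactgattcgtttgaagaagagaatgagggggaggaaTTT
The positions are chr1:75215625-75215684 (minus strand) and chr6:121226017-121226076 (plus strand). Tuba4a ends in a glutamate codon (GAG) and Tuba8 in a phenylalanine codon (TTT), so neither encodes the tyrosine that the VASH-SVBP enzymes remove.

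For the beta-tubulin genes capitals mark the glutamate codons (GAA or GAG), the residues to which glutamate chains can be attached.
Tubb4b: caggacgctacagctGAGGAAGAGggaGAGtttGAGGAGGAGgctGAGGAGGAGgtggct
Tubb5: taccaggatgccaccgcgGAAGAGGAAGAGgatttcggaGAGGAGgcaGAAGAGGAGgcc
Tubb2a: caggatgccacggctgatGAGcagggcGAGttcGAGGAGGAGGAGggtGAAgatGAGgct
The positions are chr2:25222311-25222370, chr17:35834985-35835044 and chr13:34074471-34074530, all on the minus strand. Of the 20 codons, 10 encode glutamate in Tubb4b, 9 in Tubb5 and 8 in Tubb2a. TTLL7 is known as a glutamylase that prefers beta-tubulin tails.

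The libraries held 41400132 to 54226618 counts, and levels are given as CPM (counts scaled to a common library size) after TMM scaling. Rbm20 was at 166 ± 3.20 CPM in AAV-GFP, against 484 ± 71.0 CPM in AAV-RBM20 (SD, n = 3 each). Its log2 fold change of 1.54 ± 0.15 (SE) did not pass the threshold of 0.05 without a replicate block (adjusted p = 0.121) and passed it with one (adjusted p = 0.0107), both in the quasi-likelihood test of edgeR with Benjamini-Hochberg adjustment. All adjusted p-values of edgeR below come from that test. The Bmal1 gene, Arntl, was at 35.0 ± 3.63 and 26.3 ± 1.63 CPM (SD, n = 3 each), and counts over whole genes do not resolve the exon that Cre removes. All 8 fast myofibre markers were detected and summed to between 116000 and 127000 CPM in AAV-GFP and between 75800 and 119000 CPM in AAV-RBM20, and 4 slow myofibre markers summed to at most 13.8 CPM in any library. The libraries numbered 3 stood apart in both groups. Their macrophage markers (6 genes) summed to 94.1 and 151 CPM, against 29.5 to 30.2 CPM in the other AAV-GFP and 63.7 to 72.2 CPM in the other AAV-RBM20 libraries. In bulk muscle, fewer cells of a type and less RNA per cell cannot be told apart.

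Ttll7 (ENSMUSG00000036745) lies on the plus strand of chromosome 3, from 146852367 to 146984009, with 22 merged exons and no overlapping gene. It had 33733, 26858 and 26409 counts in AAV-GFP replicates 1, 2 and 3, and 17408, 14194 and 10666 counts in AAV-RBM20 replicates 1, 2 and 3. In the same order its level was 829.8, 644 and 502 CPM in AAV-GFP, against 319, 353 and 219.6 CPM in AAV-RBM20. Every AAV-RBM20 library lay below every AAV-GFP library, and within each group the library numbered 3 was the lowest.

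The mean level of Ttll7 was 658 ± 164.5 CPM in AAV-GFP, against 297 ± 69.4 CPM in AAV-RBM20 (SD, n = 3 each), a difference of -54.8%. Between libraries of the same number the differences were -61.5%, -45.1% and -56.2%. The log2 fold change was -1.15 ± 0.24 (SE), and it was -1.15 with the replicate number as a block. Of all genes tested, 0.343% (59 genes) had a log2 fold change at or below that of Ttll7. It was -1.12 without both libraries numbered 3, -0.95 without AAV-GFP replicate 1 and -1.31 without AAV-GFP replicate 3. These values describe the difference on which the gene was picked.

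Summed marker levels of other cell types also differed between the groups or between libraries. Macrophage markers (6 genes) summed to 30.2, 29.5 and 94.1 CPM in AAV-GFP, against 72.2, 63.7 and 151 CPM in AAV-RBM20, higher in each same-numbered pair. Fibro-adipogenic markers (4 genes) summed to 340, 316 and 614 CPM in AAV-GFP, against 597, 465 and 724 CPM in AAV-RBM20. The markers of proliferating cells (2 genes) reached at most 1.99 CPM in AAV-GFP and at least 2.04 CPM in AAV-RBM20. Those of B-lineage cells (2 genes) summed to 89.1 to 144 CPM in AAV-GFP, against 34.1 to 74.0 CPM in AAV-RBM20. The sums of the latter 2 lists thus did not overlap between the groups, whereas 16.8% of all genes tested did not. The B-lineage sum was almost all Ighm. Cd79a, at most 0.268 CPM in any library, had overlapping groups, as did Mki67 of the proliferating list. Schwann cell markers (5 genes) summed to 14.2 to 40.7 CPM in AAV-GFP, against 18.0 to 32.0 CPM in AAV-RBM20, with overlapping groups.

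The fast myofibre sum was lowest, at 75800 CPM, in AAV-RBM20 replicate 3, where Ttll7 was lowest too. In the other AAV-RBM20 libraries that sum was 110000 and 119000 CPM, against 127000 and 118000 CPM in AAV-GFP replicates 1 and 2. Of the 8 fast myofibre markers, 2 had log2 fold changes above 0 (Myh1 at 0.42 and Myh2 at 0.76) and 6 below. For 2 of the 8 (Tnnt3 and Pvalb) the groups did not overlap, both lower in AAV-RBM20, beside 9.04% of all genes tested. These markers were named after their values were seen. The part of cell and fiber content in the Ttll7 values was not tested.

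**Figure D1:**
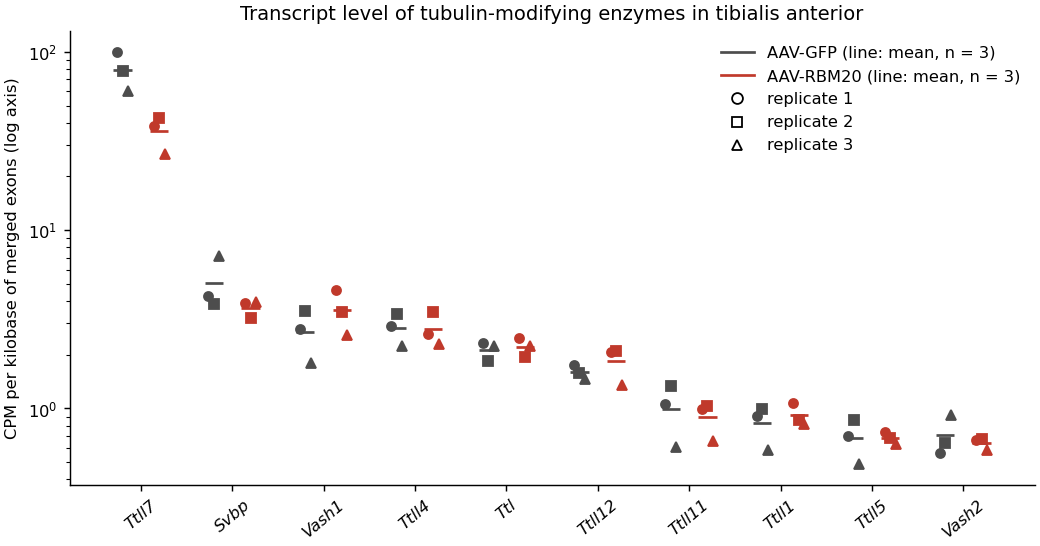
Level of each tubulin-modifying enzyme gene in CPM per kilobase of merged exons (log axis), with 1 point per library, shaped by replicate number and coloured by group, and a line at each group mean (n = 3). Ttll7 lies between 26.6 and 100 CPM per kb, with every AAV-RBM20 point under every AAV-GFP point, while the groups overlap for the other 9 genes, all at or under 7.12.

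Levels of different genes were compared per kilobase of merged exons. Over all 6 libraries Ttll7 averaged 57.8 CPM per kb (range 26.6 to 100), and its lowest library lay above the highest library of any other listed enzyme. Next came Svbp at 4.38 CPM per kb (3.20 to 7.12), Vash1 at 3.12 (1.81 to 4.61), Ttll4 at 2.82 (2.23 to 3.49), Ttl at 2.18 (1.85 to 2.50) and Ttll12 at 1.72 (1.36 to 2.09). Below a gap between ranges came Ttll11 at 0.947 CPM per kb (0.609 to 1.33), Ttll1 at 0.873 (0.587 to 1.08), Ttll5 at 0.684 (0.487 to 0.866) and Vash2 at 0.676 (0.565 to 0.925). Apart from the gaps under Ttll7 and under Ttll12, neighbours in this order overlapped in range. With the longest transcript as the length, Ttll7 stayed first at 64.6 CPM per kb. Ttll5 then moved up to 1.98, above Ttll12 at 1.84, so its place below the gap under Ttll12 depends on the length used.

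Ttll7 made up most of the listed enzyme transcripts in every library. It took 85.3%, 81.2% and 77.6% of the summed CPM per kb of the 10 genes in AAV-GFP, against 66.9%, 71.0% and 63.7% in AAV-RBM20. The other 9 genes together summed to 17.2, 18.0 and 17.5 CPM per kb in AAV-GFP, against 19.1, 17.4 and 15.1 in AAV-RBM20, with overlapping groups. Among the glutamylases of the list (Ttll7, Ttll1, Ttll4, Ttll5 and Ttll11), Ttll7 took 92.2% to 94.8% in AAV-GFP, against 85.8% to 87.7% in AAV-RBM20. It thus was the most abundant glutamylase transcript of the list also in AAV-RBM20. Its level lay at the 97.0 to 98.5 percentile of the genes tested in AAV-GFP and at the 94.6 to 96.6 percentile in AAV-RBM20.

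Of the other 9 enzymes, 0 were called at an adjusted p under 0.05 by edgeR, as did 0.0% of all genes tested, and 0 of 9 had an unadjusted p under 0.05, against 7.9% of all genes tested (4.08% higher and 3.82% lower in AAV-RBM20). DESeq2 and limma-voom called 0 of the 9 as well. The groups overlapped for 9 of 9, whereas they did not overlap for 16.8% of all genes tested (9.04% lower and 7.71% higher in AAV-RBM20). Of the log2 fold changes, 4 were above and 5 below 0, with a median of -0.002 beside 0.009 over all genes tested.

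Of the remaining glutamylases, TTLL4 is known to start glutamate side chains, on beta-tubulin and on some proteins other than tubulin. Ttll4 (chromosome 1, 74661745 to 74703730) was at 33.3, 39.0 and 25.7 CPM in AAV-GFP, against 29.9, 40.3 and 26.6 CPM in AAV-RBM20. In both groups the library numbered 2 was highest and the library numbered 3 lowest. The log2 fold change was -0.02 ± 0.21 (SE, adjusted p = 0.984).

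TTLL1 is the catalytic subunit of a multi-subunit glutamylase. Ttll1 (chromosome 15, 83483769 to 83510893) had a log2 fold change of 0.15 ± 0.26 (SE, adjusted p = 0.876), with levels of 1.71 to 2.90 CPM in AAV-GFP, against 2.37 to 3.14 CPM in AAV-RBM20. TTLL5 starts side chains, mainly on alpha-tubulin. Ttll5 (chromosome 12, 85824659 to 86061893) had nearly equal means, 10.9 ± 3.02 and 10.8 ± 0.835 CPM (SD, n = 3 each), and a log2 fold change of -0.002 ± 0.21 (SE, adjusted p = 0.997). TTLL11 lengthens existing chains. Ttll11 (chromosome 2, 35751241 to 35979913) ranged from 2.45 to 5.34 CPM in AAV-GFP and from 2.66 to 4.16 CPM in AAV-RBM20, with a log2 fold change of -0.15 ± 0.31 (SE, adjusted p = 0.895). For Ttll1, Ttll5 and Ttll11 the difference was smaller than its standard error.

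TTLL12 carries a TTL-like domain and has no firmly assigned ligase reaction. Ttll12 (chromosome 15, 83575090 to 83595157) was at 7.06, 6.42 and 5.93 CPM in AAV-GFP, against 8.38, 8.46 and 5.50 CPM in AAV-RBM20. The AAV-RBM20 libraries numbered 1 and 2 were above all AAV-GFP libraries and the library numbered 3 was below them. The log2 fold change was 0.20 ± 0.20 (SE, adjusted p = 0.768), and it ran from 0.099 without AAV-RBM20 replicate 2 to 0.39 without AAV-RBM20 replicate 3.

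In the tyrosination cycle, Ttl, Vash1, Vash2 and Svbp were measured. Ttl (chromosome 2, 129065942 to 129096283), the ligase, was at 13.9, 11.0 and 13.4 CPM in AAV-GFP, against 14.9, 11.5 and 13.2 CPM in AAV-RBM20. These levels were nearly the same in both groups, with a log2 fold change of 0.05 ± 0.15 (SE, adjusted p = 0.931), the smallest standard error of the 10 genes.

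Vash1 (chromosome 12, 86678700 to 86692091), a catalytic subunit that is also known as an endothelial gene, was at 7.23, 9.10 and 4.69 CPM in AAV-GFP, against 11.97, 9.01 and 6.69 CPM in AAV-RBM20. The groups overlapped, and the library numbered 3 was the lowest of each. The log2 fold change was 0.40 ± 0.29 (SE, adjusted p = 0.700). With the replicate number as a block it was 0.41, with an unadjusted p of 0.0378 by edgeR, past which 18.8% of all genes tested lay in that fit, and an adjusted p of 0.242 (up to 0.995 over the other alternatives). Single libraries moved the value, to 0.17 when either AAV-RBM20 replicate 1 or AAV-GFP replicate 3 was left out, and to 0.63 or 0.59 when AAV-GFP replicate 2 or AAV-RBM20 replicate 3 was left out. The 6 endothelial markers summed to 336, 367 and 157 CPM in AAV-GFP, against 368, 333 and 241 CPM in AAV-RBM20, so they were lowest in the same libraries as Vash1. Their part in the Vash1 values was not tested.

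Vash2 (chromosome 1, 190947646 to 190979296), the other catalytic subunit, was at 2.44, 2.78 and 3.99 CPM in AAV-GFP, against 2.86, 2.91 and 2.51 CPM in AAV-RBM20, with a log2 fold change of -0.16 ± 0.24 (SE, adjusted p = 0.860). Per kilobase Vash2 was the lower of the 2 catalytic subunits in every library. Svbp (chromosome 4, 119195306 to 119201298), the small partner that both VASH proteins need, was at 4.53, 4.12 and 7.58 CPM in AAV-GFP, against 4.14, 3.41 and 4.22 CPM in AAV-RBM20. It was lower in AAV-RBM20 in 3 of 3 same-numbered pairs, but the groups overlapped, and the log2 fold change of -0.46 ± 0.26 (SE, adjusted p = 0.657) became -0.14 without AAV-GFP replicate 3.

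The ratio of Ttl to the sum of Vash1 and Vash2, in CPM per kb, was 0.697, 0.446 and 0.824 in AAV-GFP, against 0.475, 0.469 and 0.705 in AAV-RBM20. It overlapped between the groups and was highest in the library numbered 3 of each.

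**Figure D2:**
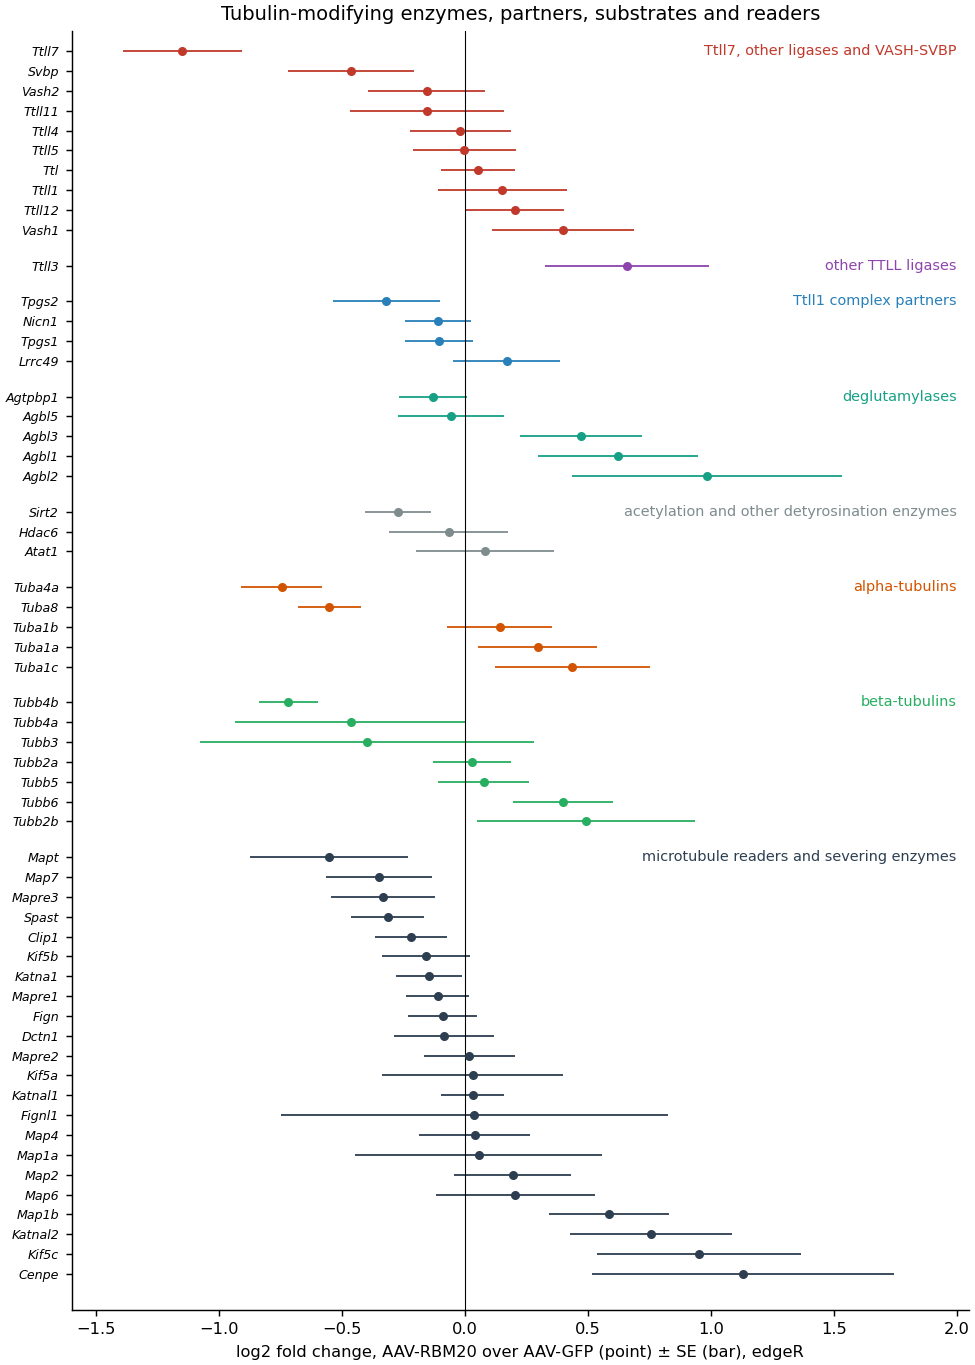
Log2 fold change of AAV-RBM20 against AAV-GFP (edgeR, points, with bars of ± 1 SE) for the 10 enzymes and for tested genes of the 7 pathway lists, grouped by list. Ttll7 is at -1.15, the 9 other enzymes lie between -0.46 and 0.40, and Tuba4a, Tuba8 and Tubb4b lie between -0.75 and -0.55.

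The wider pathway was read from 7 lists holding 61 symbols, of which 59 were in the table and 48 passed the low-count filter. By edgeR 0 of the 48 were called at an adjusted p under 0.05, and 4 had an unadjusted p under 0.05, 1 higher (Map1b) and 3 lower (Tuba4a, Tuba8 and Tubb4b), against the 7.9% of all genes given above. DESeq2 called 2 of them, Tuba4a and Tubb4b, where it called 0.409% of the 17610 genes it tested. Without both libraries numbered 3, edgeR called 5 of them (Tuba4a, Tuba8, Tubb4b and Mapt lower, Tubb6 higher in AAV-RBM20) and 4.0% of all genes tested. The median log2 fold change was 0.02. With the replicate number as a block 0 were called, beside 0.145% of all genes tested, and 13 had an unadjusted p under 0.05, beside the 18.8% of all genes.

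The enzymes that oppose glutamylation include AGTPBP1 and the AGBL proteins, which remove glutamates from tubulin tails. Agbl1, the most abundant of them per kilobase, was at 83.5, 62.2 and 29.7 CPM in AAV-GFP, against 99.96, 84.0 and 85.9 CPM in AAV-RBM20. The groups did not overlap, although their closest libraries differed by less than 1 CPM, and the log2 fold change was 0.62 ± 0.33 (SE, adjusted p = 0.654). An annotated gene on the opposite strand overlaps its exons, and the strand setting of the counting is not given in the sources used here.

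Agbl2 and Agbl3 also had groups that did not overlap, with log2 fold changes of 0.98 ± 0.55 and 0.47 ± 0.25 (SE, adjusted p = 0.657 for both), but Agbl2 stayed under 1 CPM in every library. Agtpbp1, which shortens glutamate chains, and Agbl5, which removes the branch-point glutamate, had log2 fold changes of -0.13 ± 0.14 and -0.06 ± 0.22 (SE, adjusted p = 0.788 and 0.948). Agbl4 was at 0 counts in all libraries. Of the 5 deglutamylases tested, 0 were called and 3 had groups that did not overlap, all higher in AAV-RBM20, beside 7.71% of all genes tested.

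Among the TTLL genes outside the list, Ttll3, a glycylase that adds glycine in place of glutamate, was the only gene of 7 that passed the filter. It was at 1.92, 2.52 and 1.04 CPM in AAV-GFP, against 3.21, 3.06 and 2.35 CPM in AAV-RBM20, with a log2 fold change of 0.66 ± 0.33 (SE, adjusted p = 0.654). Ttll6, Ttll8 and Ttll10 had 0 counts in every library, and Ttll2, Ttll9 and Ttll13 stayed at or under 0.22 CPM. The partners of TTLL1 in its complex were detected, and the 4 tested (Tpgs1, Tpgs2, Lrrc49 and Nicn1) had log2 fold changes from -0.32 to 0.17 with overlapping groups.

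Tubulin acetylation is written by ATAT1 and removed by HDAC6 and SIRT2. Sirt2 was at 74.3, 68.0 and 68.6 CPM in AAV-GFP, against 61.7, 62.8 and 50.1 CPM in AAV-RBM20, with groups that did not overlap and a log2 fold change of -0.27 ± 0.13 (SE, adjusted p = 0.647). Such a gap, with the RBM20 group lower, was found for 9.04% of all genes tested and for 1 of the 3 in this list. The exons of Sirt2 overlap a gene on the opposite strand. Atat1 and Hdac6 had log2 fold changes of 0.08 ± 0.28 and -0.07 ± 0.24 (SE, adjusted p = 0.945 and 0.948).

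Among the substrates, the most abundant tubulin transcripts had lower levels in AAV-RBM20. Tubb4b, the most abundant beta-tubulin transcript and the one with 10 glutamate codons in the tail shown above, was at 111, 117 and 123 CPM in AAV-GFP, against 71.6, 75.6 and 66.2 CPM in AAV-RBM20. The groups were far apart relative to their spread, 117 ± 5.92 against 71.1 ± 4.73 CPM (SD, n = 3 each). The log2 fold change of -0.72 ± 0.12 (SE) had an adjusted p of 0.419 in edgeR's test, 0.0561 with the replicate block, 0.000605 in DESeq2 and 0.000929 in edgeR's test without both libraries numbered 3. Over all alternatives its adjusted p ran from 0.000605 to 0.988.

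Tuba4a, the most abundant alpha-tubulin transcript, was at 458, 458 and 614 CPM in AAV-GFP, against 275, 325 and 312 CPM in AAV-RBM20. This was a log2 fold change of -0.75 ± 0.16 (SE), with an adjusted p of 0.573 in edgeR's test, 0.0747 with the replicate block, 0.0156 in DESeq2 and 0.00428 in edgeR's test without both libraries numbered 3, the highest over all alternatives being 0.988. Tuba8, an alpha-tubulin known from striated muscle, was at 161, 168 and 176 CPM in AAV-GFP, against 118, 124 and 102 CPM in AAV-RBM20. This was a log2 fold change of -0.55 ± 0.13 (SE), with an adjusted p of 0.617, 0.0893 with the block and 0.00598 without both libraries numbered 3, the highest being 0.988 again. Every AAV-RBM20 library lay below every AAV-GFP library for each of these 3 genes, as for 9.04% of all genes tested. They were 2 of 5 alpha-tubulins and 1 of 7 beta-tubulins tested. All 3 were named for an unadjusted p under 0.05, so this describes genes already picked for their difference. Each overlaps exons of a gene on the opposite strand, so reads of the partner may be included.

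The other alpha-tubulins had positive log2 fold changes within the spread of the replicates. Tuba1a, Tuba1b and Tuba1c had values of 0.30 ± 0.24, 0.14 ± 0.21 and 0.44 ± 0.32 (SE, adjusted p = 0.730, 0.856 and 0.700). Tuba1a and Tuba1b have near-identical coding sequences, and both overlap exons of another gene on the same strand. They may therefore share reads with each other or with that gene, and are uncertain one by one. Tuba1a, Tuba1b and Tuba1c were highest in the libraries numbered 3 of both groups. Those libraries had the highest macrophage and fibro-adipogenic marker sums, and the part of those cells was not tested. Of the other beta-tubulins, Tubb5 was at 0.08 ± 0.18 and Tubb2a at 0.03 ± 0.16 on the log2 fold change scale (SE, adjusted p = 0.916 and 0.968). Tubb6 was at 0.40 ± 0.20 and Tubb2b at 0.49 ± 0.44 on that scale (SE, adjusted p = 0.654 and 0.749). For Tubb6 the AAV-RBM20 libraries (7.64 to 7.75 CPM) lay above the AAV-GFP libraries (4.58 to 7.60 CPM), as for 7.71% of all genes tested. Without both libraries numbered 3 its log2 fold change was 0.64 (adjusted p = 0.0292 in edgeR's test).

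Summed over genes, alpha-tubulin transcripts were at 202, 208 and 258 CPM per kb in AAV-GFP, against 138, 154 and 144 CPM per kb in AAV-RBM20. Tuba4a took 61.1%, 59.6% and 64.4% of the sum in AAV-GFP, against 53.9%, 57.1% and 58.6% in AAV-RBM20. Tuba8 took 30.3% to 35.9% and 31.4% to 37.8%, with overlapping groups. In both groups most counted alpha-tubulin transcript thus came from Tuba4a and Tuba8, whose encoded tails lack the terminal tyrosine that VASH-SVBP removes. How reads shared between genes were counted is not given in the sources used here. Tuba1a and Tuba1b may therefore be undercounted, and these shares are uncertain. Transcript shares do not give protein shares, and no test was run on these sums, which were chosen after their values were seen.

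Beta-tubulin transcripts summed to 65.1, 69.9 and 75.9 CPM per kb in AAV-GFP, against 49.6, 50.2 and 49.1 CPM per kb in AAV-RBM20. Tubb4b took 77.6% to 81.8% of the sum in AAV-GFP, against 64.5% to 72.0% in AAV-RBM20. Without Tubb4b the sums were 14.3 ± 2.57 and 15.6 ± 1.72 CPM per kb (SD, n = 3 each), with overlapping groups. Tubb4b, the main beta-tubulin transcript, was thus at a lower level in all AAV-RBM20 libraries, as were 9.04% of all genes tested. Ttll7, the beta-preferring glutamylase, was picked for a difference in that direction, and a link between the genes was not tested.

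**Figure D3:**
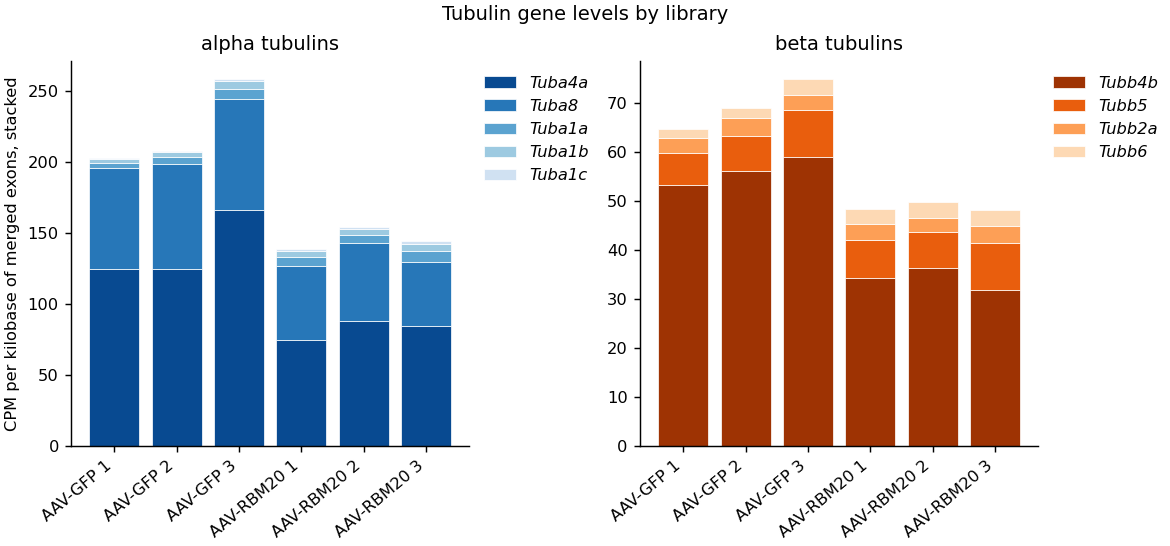
Stacked CPM per kb of alpha-tubulin (left) and beta-tubulin (right) transcripts in each library, coloured by gene, for genes averaging at least 1 CPM per kb. With the rarer genes included, the alpha sum is 202 to 258 in AAV-GFP, against 138 to 154 in AAV-RBM20, and the beta sum 65.1 to 75.9 and 49.1 to 50.2, with Tuba4a, Tuba8 and Tubb4b as the main layers.

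Of 23 genes for proteins that bind, read or cut microtubules, 12 had a log2 fold change above 0 and 11 below, and 1 had an unadjusted p under 0.05. This was Map1b, a microtubule-associated protein best known from growing neurites, at 28.8, 33.7 and 18.2 CPM in AAV-GFP, against 49.6, 37.8 and 33.65 CPM in AAV-RBM20. Its groups overlapped by a narrow margin, and the log2 fold change was 0.59 ± 0.24 (SE, adjusted p = 0.618), or 0.37 without AAV-GFP replicate 3. Map4, the most abundant gene of the list and a microtubule-associated protein needed in muscle differentiation, was at 55.4 and 56.9 CPM per kb, with a log2 fold change of 0.04 ± 0.23 (SE, adjusted p = 0.968). Next in level, Clip1, a plus-end protein, Kif5b, a kinesin heavy chain, and Dctn1, a dynactin subunit, had log2 fold changes of -0.22 ± 0.15, -0.16 ± 0.18 and -0.08 ± 0.20 (SE, adjusted p = 0.681, 0.802 and 0.915). Of the genes named here, the groups did not overlap for Clip1 and for Spast, both lower in AAV-RBM20, as for 9.04% of all genes tested. Spast encodes spastin, a severing enzyme whose activity is known to depend on tail glutamylation.

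Genes that varied most like Ttll7 were found by Pearson's r of log2 CPM over the 6 libraries, among the 11554 tested genes that averaged 1 or more on that scale. The first 5 were Mrln (r = 0.992), Bace1 (0.992), Atpaf1 (0.986), Mrgprh (0.986) and Eepd1 (0.985). Mrln, which encodes a micropeptide inhibitor of the sarcoplasmic calcium pump, was at 51.4, 42.9 and 35.5 CPM in AAV-GFP, against 21.6, 23.3 and 13.0 CPM in AAV-RBM20. Its log2 fold change of -1.16 ± 0.24 (SE) was close in size to that of Ttll7. Bace1, the beta-secretase gene, had -0.47, Mrgprh, an orphan receptor gene, -0.67, Eepd1 -0.27 and Atpaf1, an assembly factor of ATP synthase, -0.21 on the same scale. A total of 246 genes had an r above 0.9, and all these values rest on the same 6 libraries, in which both the group difference and the libraries numbered 3 enter.

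Other enzymes of the list did not vary with Ttll7 to this extent. Their r with Ttll7 over the 6 libraries ran from 0.48 for Ttll11 and 0.37 for Ttll4 through 0.26 for Svbp to -0.15 for Vash1 and -0.18 for Ttl. With 6 libraries of 2 groups these are descriptions only.

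**Figure D4:**
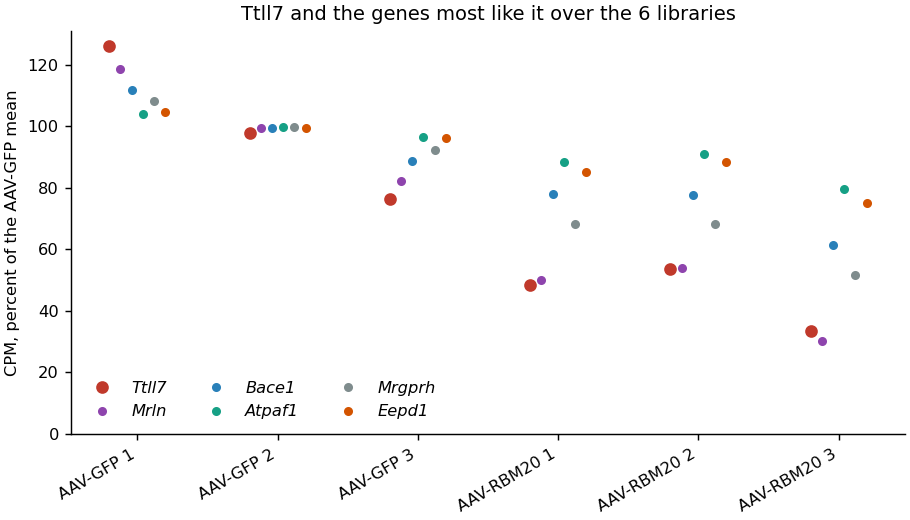
CPM of Ttll7 and of the 5 genes most like it in each of the 6 libraries, as a percent of the gene's own AAV-GFP mean. All 6 genes are highest in AAV-GFP replicate 1 and lowest in AAV-RBM20 replicate 3, and Ttll7 and Mrln span the widest range.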

How the data were processed

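Total RNA of 6 TA samples was made into stranded, ribosomal RNA-depleted libraries, which the authors aligned by HISAT2 (build mm10) and summarised per gene by HTSeq. The deposited table holds unnormalised whole-number counts per Ensembl gene. Tool versions, annotation release and strand setting are not given in the sources used here, so genes with opposite-strand overlaps are uncertain. A second table, of counts divided by DESeq2 size factors, was not used here.

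Of the 55401 identifiers, 55141 matched GENCODE M21 and 260 had no symbol. Groups were taken from the labels. After filterByExpr and TMM normalisation, AAV-RBM20 was compared with AAV-GFP by the quasi-likelihood test of edgeR 4.0.16 (robust, no covariate) in R 4.3.3, with Benjamini-Hochberg adjustment over 17222 genes and a threshold of 0.05. The fits were also run on simulated counts with the same dispersion for every gene and no replicate effect. That run differs from these libraries and does not gauge the fits for them. Log2 CPM used a prior count of 2. Alternatives were DESeq2 1.42.0, limma-voom (limma 3.58.1), other scaling factors and filters (none, or 1 CPM in 3 libraries), a replicate block, and leaving out libraries. A library held 41400132 to 54226618 counts.

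Replicate numbers come from the titles, while the column names number the AAV-RBM20 samples on from AAV-GFP. Across genes, deviations from the group means correlated at 0.418, 0.201 and 0.484 between libraries of the same number. Libraries of different number correlated at -0.422 to 0.216, which reaches above the 0.201 of the libraries numbered 2. These correlations therefore do not establish that equal numbers mark pairs. The fit with the replicate block is given as an alternative beside the planned fit without it.

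All 10 listed enzymes were named. From each pathway list the text names up to 5 genes, first those with an unadjusted p under 0.05 and then those with the highest level per kilobase, and 5 genes most like Ttll7. Rbm20 and Bmal1 served as a label check. Genes named outside this rule (those at 0 or under the filter, those whose groups do not overlap, and those called under an alternative) were picked with their values in view. The members and lists were chosen with earlier results of these data known. Some genes and sequences are not reported here.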

Additional observations from a re-analysis of the deposited data

How the results depend on the processing

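The sign for Ttll7, Ttll12, Vash1 and Svbp was kept under all 14 alternatives. Genes called numbered 0 in the planned test and in each fit without a single library (0 to 0), 8 without a low-count filter, 25 with the replicate block, 72 in DESeq2 and 690 without both libraries titled replicate 3. Of the 9 enzymes other than Ttll7, 0 were called under any alternative (0 to 0 without single libraries). At an unadjusted p under 0.05 there was 1, Vash1, with the block, and 0 to 1 without single libraries (Svbp without AAV-GFP replicate 2, Ttll12 without AAV-RBM20 replicate 3), and 1, Ttll12, without both libraries titled replicate 3. Pathway genes called numbered 0, but 2 in DESeq2 and 5 without both libraries titled replicate 3, and 0 to 0 without single libraries. Of the 5, Tuba4a, Tuba8, Tubb4b and Mapt were lower and Tubb6 was higher in AAV-RBM20. At an unadjusted p they numbered 4, but 13 with the block, 14 without both libraries titled replicate 3 and 3 to 10 without single libraries (7 without AAV-GFP replicate 2, 10 without AAV-GFP replicate 3).

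Log2 fold changes that changed sign were all near 0. Ttll4 was at 0.021 with upper quartile factors and at 0.0045 with the 1 CPM filter. Ttll5 was at 0.036 with upper quartile factors, 0.020 with the 1 CPM filter, 0.032 with the replicate block and 0.048 in limma-voom. Vash2 was at 0.15 without both libraries titled replicate 3. Without single libraries the ranges were -0.05 to 0.30 for Ttll1, -0.21 to 0.12 for Ttll4, -0.20 to 0.20 for Ttll5, -0.42 to 0.10 for Ttll11, -0.047 to 0.14 for Ttl, -0.30 to 0.08 for Vash2, 0.099 to 0.39 for Ttll12, 0.17 to 0.63 for Vash1, -0.63 to -0.14 for Svbp and 0.37 to 0.78 for Map1b. Levels per kilobase moved by more than the replicate SD with the longest transcript length for Ttll1 (1.23 CPM per kb), Ttll5 (1.98) and Ttl (2.84). Among the 9 other enzymes and the 48 pathway genes, the block changed no call. The causes were not tested.

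With 3 libraries per group, of which the one numbered 3 stands apart in each, the planned edgeR test resolved no difference at the threshold. The standard errors of the 9 enzymes were 0.15 to 0.31 on the log2 scale. Even Rbm20, at 1.54 ± 0.15 (SE), had an adjusted p of 0.121 in that test, so an enzyme that was not called may still differ. Ttll1, Ttll11 and Vash2 were at a few CPM.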
